A study of Mus musculus with 18 samples.

Results

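The tumors described here are 4 of the 18 in the series: 2 given exoCDN2 and 2 given free CDN2, each in 2 IT (intratumoral) doses. They were chosen by their treatment labels alone, and every gene with enough counts to be tested was followed in them, which was 17110 genes. The label of the 2 tumors given free CDN2 states 2 doses but no amount. Vesicle loading and the amount of agonist therefore cannot be told apart in this comparison, and "free CDN2" below always means these 2 tumors of unlabelled amount.

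CDN2, named CL656 in the sample labels, is a synthetic cyclic dinucleotide that activates STING, and exoCDN2 is the same compound loaded into extracellular vesicles (EVs). The vesicles came from an engineered human producer cell line that overexpresses the membrane protein PTGFRN. The recipients were female C57BL/6 mice, bought at 5 to 6 weeks of age, with B16F10 melanoma, a single transplantable cell line, under the skin of the flank. Whole tumors were taken 24 h after the second dose, which followed the first by 3 days, and RNA was sequenced. The submitters' treatment description gives 0.1 µg for exoCDN2, and the sample labels of these 2 tumors do not repeat it. For free CDN2 that description names 20 µg only, which other tumors also carry in their own labels, so the amount given to the 2 free CDN2 tumors compared here is not settled by it. A further 2 groups of 2 tumors serve as the background of the same schedule: PBS, and free CDN2 with 20 µg in the label. The remaining 10 tumors were given 1 dose of PBS, unloaded EVs, exoCDN2, or CDN2 at 20 or 100 µg. These 10 entered no comparison, but they did enter the choice of genes tested, the scaling and the estimate of the spread between replicates. No tumors given unloaded EVs in 2 doses were analysed here, so the vesicle alone has no background of the same schedule.

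STING is an adaptor protein of the endoplasmic reticulum that senses cyclic dinucleotides and switches on the kinase TBK1 and the transcription factor IRF3, which induce type I interferon. Secreted interferon then acts through its receptor on interferon-stimulated response elements in the promoters of interferon-stimulated genes, many of which encode antiviral proteins and chemokines. In tumors this program is known for drawing in and arming T cells and NK cells, and strong STING activation is also known to recruit neutrophils and to kill cells.

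The promoters of 4 interferon-stimulated genes among the 15 with the smallest p-values in this comparison are shown first, taken from the 6 of these genes whose promoter holds the motif described here, in order to show it. Each covers 250 bases before and 50 after a transcription start site in RefSeq (GRCm38.p6), written 5′ to 3′ on the strand of the gene: Isg15 at chr4:156200769-156201068 on the minus strand, Oas3 at chr5:120777610-120777909 on the minus strand, Stat2 at chr10:128270248-128270547 on the plus strand and Slfn8 at chr11:83020761-83021060 on the minus strand. Capitals mark matches, on either strand, to a core of the interferon-stimulated response element that reads GAAA, then 2 bases of any kind, then GAAA, and in Isg15 the run of capitals holds 3 overlapping matches.
Isg15: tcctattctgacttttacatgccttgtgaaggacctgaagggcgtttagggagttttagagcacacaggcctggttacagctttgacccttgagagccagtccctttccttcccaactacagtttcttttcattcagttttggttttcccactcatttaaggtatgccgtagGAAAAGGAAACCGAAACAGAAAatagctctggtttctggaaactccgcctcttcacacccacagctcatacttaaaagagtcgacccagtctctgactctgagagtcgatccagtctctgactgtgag
Oas3: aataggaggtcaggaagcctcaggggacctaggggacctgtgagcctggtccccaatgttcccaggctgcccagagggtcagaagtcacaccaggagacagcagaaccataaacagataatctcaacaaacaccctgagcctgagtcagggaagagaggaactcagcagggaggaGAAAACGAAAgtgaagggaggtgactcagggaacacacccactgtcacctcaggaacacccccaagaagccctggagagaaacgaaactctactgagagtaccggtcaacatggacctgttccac
Stat2: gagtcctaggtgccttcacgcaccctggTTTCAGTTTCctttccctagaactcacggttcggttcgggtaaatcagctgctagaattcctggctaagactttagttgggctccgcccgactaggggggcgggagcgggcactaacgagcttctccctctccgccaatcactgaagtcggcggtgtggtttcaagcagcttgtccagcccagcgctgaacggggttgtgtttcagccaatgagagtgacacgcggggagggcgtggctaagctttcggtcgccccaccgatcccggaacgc
Slfn8: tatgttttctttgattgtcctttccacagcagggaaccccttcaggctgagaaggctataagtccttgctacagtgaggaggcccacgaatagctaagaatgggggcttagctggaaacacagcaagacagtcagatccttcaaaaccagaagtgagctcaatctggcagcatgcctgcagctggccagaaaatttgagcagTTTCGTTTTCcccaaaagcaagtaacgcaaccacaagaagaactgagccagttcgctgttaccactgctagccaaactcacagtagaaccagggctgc
The motif was found in 3.44% of all 32851 promoters of that length in the table and in 3.26% of the 15209 promoters of tested genes. Of the 780 promoters of genes higher with exoCDN2 it was present in 13.5%, and of the 204 promoters of genes lower with exoCDN2 in 3.43%. Among the 15 named genes, 11 had a promoter in the table and 6 of these held the motif, while the promoters of Irf7, Oasl2, Hsh2d, Phf11d and Dtx3l did not hold these letters in this window. Promoters of overlapping start sites share sequence, and a match is a description of letters and not of a bound site.

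The total of expected counts was 45019718 and 45639988 in the 2 tumors given free CDN2, and 48938189 and 65983630 in those given exoCDN2, within a range of 21608895 to 65983630 over all tumors. The 2 tumors of a group correlated across genes with Pearson's r of 0.979 for free CDN2 and 0.982 for exoCDN2, and 13.9% and 7.70% of the tested genes differed more than 2-fold between them. Tumor 2 given free CDN2 stood apart, since 7.67% of its counts came from mitochondrially encoded genes, against 3.34% in tumor 1 of that group, 3.46% and 3.31% with exoCDN2, and 3.76% and 3.88% with PBS. Tumor 1 given exoCDN2 also stood apart by skin genes: the summed level of the 22 tested keratinocyte markers was 141 and 11.3 CPM with exoCDN2 and 10.4 and 15.7 CPM with free CDN2. Krt5, a keratin of basal keratinocytes, was at 18.6 and 0 CPM with exoCDN2 and 0.278 and 0 CPM with free CDN2, and 0 of the 22 markers were called. Levels are CPM (counts relative to library size scaled by edgeR's TMM method), given for tumor 1 and then tumor 2 of each group, and where pairs of values are set against each other free CDN2 comes first. With whole tumors, fewer cells of a type and less RNA per cell cannot be told apart.

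The question of the comparison was how the transcriptome differed between tumors given the agonist in EVs and tumors given it free at an unlabelled amount. Genes of the interferon response, antigen presentation, complement and cytotoxic lymphocytes were higher with exoCDN2, and genes of cell division were lower. Of the 17110 genes, 1092 (6.38%) were called changed in edgeR's quasi-likelihood test, a call being a Benjamini-Hochberg adjusted p below 0.05 together with a ratio above 2. Brackets after the levels of a gene give its log2 fold change, exoCDN2 over free CDN2, with ± its SE and its adjusted p in that test. The SE was taken as the size of the log2 fold change divided by the square root of the F statistic of the test. Of the 1092 called genes, 850 (4.97% of those tested) were higher and 242 (1.41%) were lower with exoCDN2. The called genes that were higher had a median log2 fold change of 2.16, and 176 of them differed more than 8-fold. Those that were lower had a median of -1.26, and 4 of them differed more than 8-fold. The median over all tested genes was 0.04, and 9155 of the 17110 had groups that did not overlap. Protein-coding genes made up 89.8% of the higher and 93.4% of the lower calls, against 85.2% of all tested genes.

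**Figure D1:**
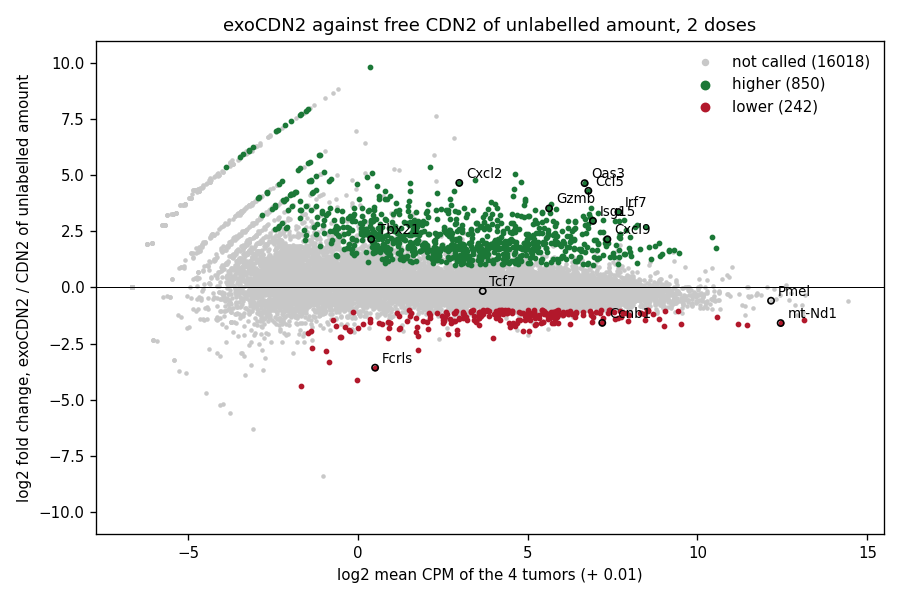
Each point is a gene, with the log2 mean CPM of the 4 tumors (0.01 CPM added) on the x axis and the log2 fold change of exoCDN2 over free CDN2 of unlabelled amount on the y axis. The 850 genes called higher (green) spread further from the zero line than the 242 called lower (red). Diagonal streaks at the left are genes with very few counts.

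The number of calls rested on single tumors. Without tumor 1 given exoCDN2, the tumor with keratinocyte genes, 170 genes were called (159 higher and 11 lower), and without tumor 2 given free CDN2, the tumor with the high mitochondrial share, 276 were called (226 and 50). Without tumor 1 given free CDN2 there were 1415 (658 and 757) and without tumor 2 given exoCDN2 1307 (995 and 312). A fit of only the 8 tumors given 2 doses called 322 genes (309 and 13). Scaling by total counts alone moved the split to 1099 higher and 105 lower and the median of all genes to 0.22. The lists with calls are therefore given below with their counts in the fits that leave out tumor 1 given exoCDN2 or tumor 2 given free CDN2. Among only the 8 tumors given 2 doses, many lists also had fewer calls. Cell cycle had 2 against 11 in the full fit, complement 6 against 11, and Th1 and effector T cells 3 against 8. NK cells had 1 against 8, T cells 1 against 6, MHC class II 0 against 3 and MHC class I 12 against 13. The CXCR3 axis kept 3 and the leukocyte adhesion molecules 2, and skeletal muscle had 1 against 0.

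Interferon-stimulated genes formed the clearest group. Of 43 tested members of a list of such genes, 42 were called higher with exoCDN2 and 0 lower, with a median log2 fold change of 2.31 against 0.04 over all genes. Their summed level was 2285 and 2619 CPM with free CDN2 and 11894 and 8984 CPM with exoCDN2, a 4.26-fold difference of the means. With PBS it was 823 and 711 CPM, so the tumors given free CDN2 lay above PBS, and 32 of the 43 genes were called higher in them than with PBS (0.959% of all tested genes were called in that comparison). The exoCDN2 tumors lay between free CDN2 and 20 µg CDN2, whose sums were 14390.0 and 14955 CPM. In the reduced fits this list had 34 calls without tumor 1 given exoCDN2, 34 without tumor 2 given free CDN2 and 35 among the 8 tumors given 2 doses.

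**Figure D2:**
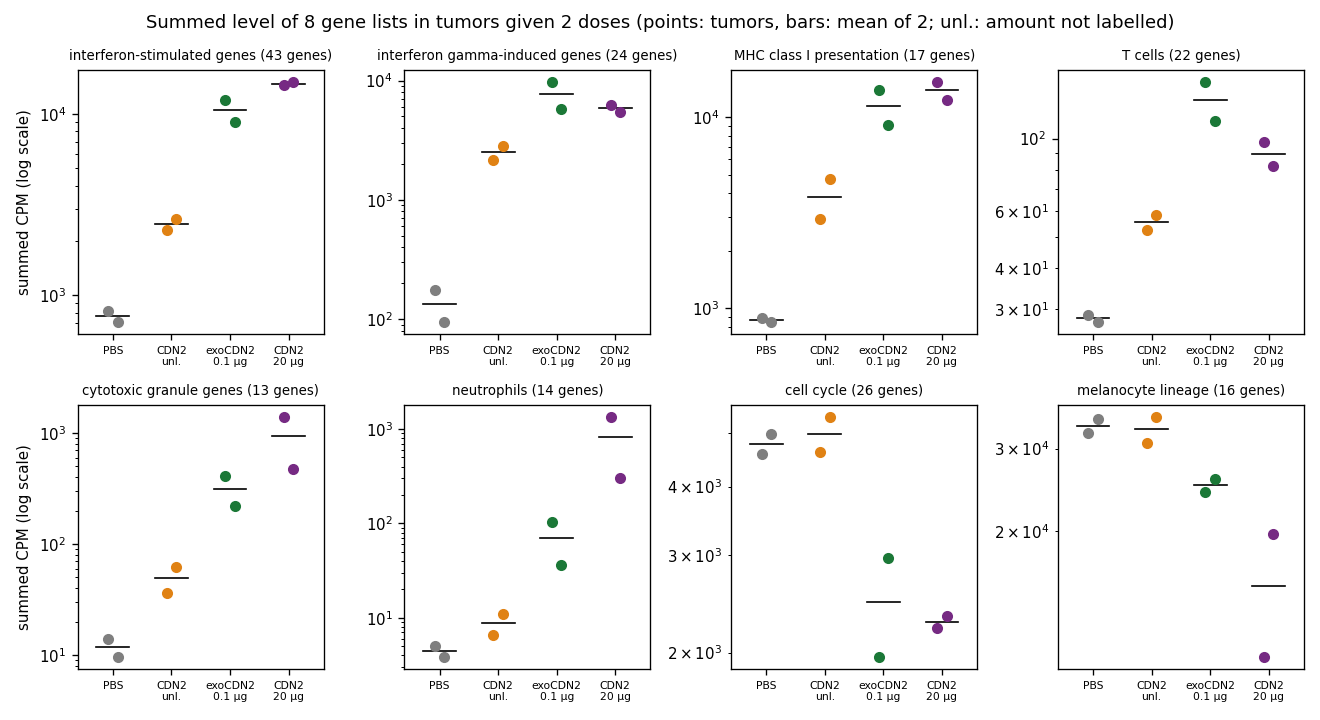
Summed CPM (log scale) of 8 gene lists in the 8 tumors given 2 doses, with 1 point per tumor and a bar at the mean of 2. The interferon-stimulated genes stood at 2285 and 2619 CPM with free CDN2 of unlabelled amount (unl.) and at 11894 and 8984 CPM with exoCDN2, and the cell cycle list at 4613 and 5352 against 1965 and 2969 CPM.

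Among the genes of nucleic acid sensing and its effectors, Oasl2, a member of the 2′-5′ oligoadenylate synthetase-like family (ENSMUSG00000029561, chr5:114896936-114912234), had the smallest p-value. It was at 32.1 and 34.2 CPM with free CDN2 and at 309.8 and 219 CPM with exoCDN2, a log2 fold change of 2.99 ± 0.20, adjusted p = 8.48e-06. The 2 groups did not overlap, and both lay above the 5.02 and 4.58 CPM of the PBS tumors. Oas3 (ENSMUSG00000032661, chr5:120753098-120777661), whose product makes the 2′-5′ oligoadenylates that activate RNase L, stood at 6.75 and 8.97 against 255 and 139 CPM and had the largest fold change of the 15 genes, 4.65 ± 0.32, adjusted p = 1.01e-05. Ddx58, which encodes the RNA sensor RIG-I, rose from 62.8 and 50.8 to 249.97 and 252 CPM, and in all 4 tumors it was above the 22.1 and 23.3 CPM seen with PBS. Its log2 fold change was 2.14 ± 0.22, adjusted p = 0.000262.

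Isg15 (ENSMUSG00000035692, chr4:156199424-156200818), a ubiquitin-like protein that is attached to other proteins, was at 22.7 and 32.4 CPM with free CDN2 and 239 and 191 CPM with exoCDN2 (2.97 ± 0.27, adjusted p = 7.95e-05). With 20 µg CDN2 it reached 1056 and 663 CPM, so the exoCDN2 tumors were intermediate, and with PBS it was at 4.31 and 4.47 CPM. Usp18, the protease that removes Isg15 and dampens interferon receptor signaling, followed the same order, with 18.6 and 26.3 CPM in the free CDN2 tumors and 212 and 156 CPM in the exoCDN2 tumors (3.03 ± 0.24, adjusted p = 3.39e-05). The transcription factors of the pathway were also higher. Irf7, the factor that amplifies interferon production (ENSMUSG00000025498, chr7:141262706-141266481), was at 31.3 and 41.2 against 431 and 313 CPM (3.36 ± 0.28, adjusted p = 5.17e-05). Stat2, a subunit of the factor that binds interferon-stimulated response elements, was at 29.5 and 21.2 against 156 and 96.2 CPM (2.31 ± 0.22, adjusted p = 0.00014). The other genes among the 15 were Hsh2d, Phf11d, Dtx3l, Oas2, Rtp4, Apobec3, Slfn8 and Ccl5. Their log2 fold changes lay between 1.93 (Dtx3l) and 4.31 (Ccl5), and all 15 were called in each of the 12 alternative fits, those leaving out a tumor included.

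Among the interferon genes, the direct target of STING signaling, Ifnb1, was scarce in these tumors 24 h after the dose. It had 0 and 0.0533 CPM with free CDN2 and 0.136 and 0.0423 CPM with exoCDN2, values at or near the limit of 3 counts (0.0721 and 0.0503 CPM over the 2 groups), and no difference was detectable. With 20 µg CDN2 it was at 10.4 and 1.06 CPM. None of the 12 tested type I and III interferon genes was called, and 7 of them were at or under 3 counts in all 4 tumors. The list summed to 208 and 173 CPM with free CDN2, 268 and 234 CPM with exoCDN2 and 251 and 271 CPM with PBS. In the 4 tumors compared, members other than these 7 carried that sum, so it does not measure the scarce ones such as Ifnb1. Of the 15 tested genes of the STING pathway, 4 were higher with exoCDN2 (3 in either fit without a tumor that stood apart), and the 3 of these with the smallest p were Ifi203 and Ifi204, which belong to the family of interferon-inducible DNA-binding proteins, and Zbp1, a sensor of left-handed nucleic acids that can start necroptosis. Zbp1 was at 36.02 and 50.9 CPM with free CDN2 and 423 and 255 CPM with exoCDN2 (2.96 ± 0.42, adjusted p = 0.00107). Tmem173, the gene of STING itself, was at 57.5 and 71.2 CPM with free CDN2 and 92.4 and 78.6 CPM with exoCDN2 and was not called, with an unadjusted 95% interval of 0.04 to 0.78 for its log2 fold change.

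**Figure D3:**
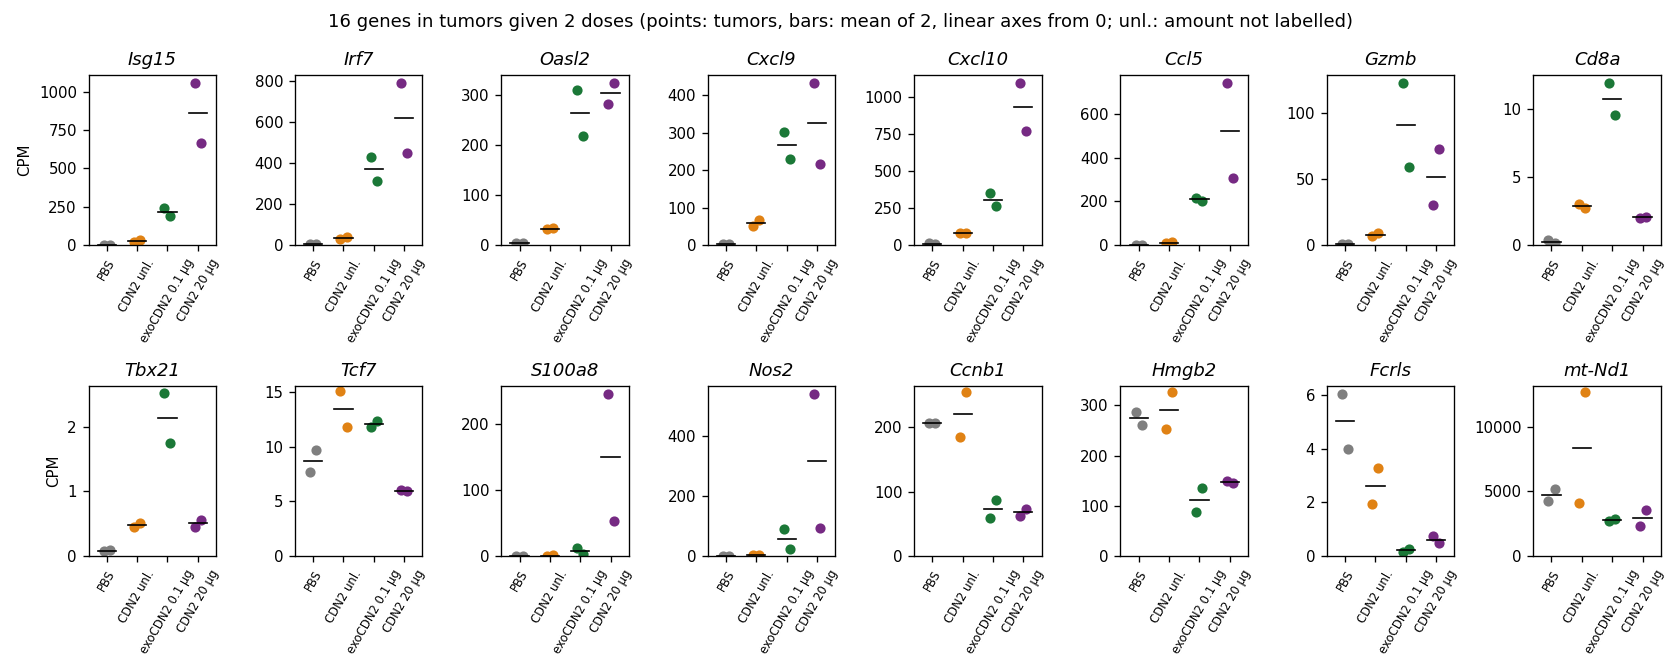
CPM of 16 genes in the 8 tumors given 2 doses, on linear axes from 0, with 1 point per tumor and a bar at the mean of 2. Isg15, Irf7 and Oasl2 rose in steps from PBS through free CDN2 of unlabelled amount (unl.) to exoCDN2, while Tcf7 overlapped between the exoCDN2 and free CDN2 tumors.

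Genes that respond to interferon gamma, the cytokine of T cells and NK cells, were higher as well, though with fewer calls when a tumor was left out. Of 24 tested genes on that list 16 were called higher, with a median of 1.86, and 4 and 4 were called without tumor 1 given exoCDN2 and without tumor 2 given free CDN2. Gbp9, a guanylate-binding GTPase, was at 13.2 and 11.6 CPM with free CDN2 and 110.02 and 80.9 CPM with exoCDN2 (2.95 ± 0.37, adjusted p = 0.000586). Irgm2, an immunity-related GTPase, was at 108 and 71.5 against 548 and 313 CPM (2.26 ± 0.28, adjusted p = 0.000441). Both stayed called in all 12 alternative fits. The summed level of the list was 9728 and 5749 CPM with exoCDN2 and 6239 and 5461 CPM with 20 µg CDN2, whereas the free CDN2 tumors stood at 2174 and 2818 CPM and the PBS tumors at 174 and 94.4 CPM. Ifng itself was at 0.835 and 1.68 CPM with free CDN2 and 5.1 and 3.19 CPM with exoCDN2 and was not called (1.73 ± 0.82, adjusted p = 0.211), although its 2 groups did not overlap.

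The chemokines that bind CXCR3, the receptor on activated T cells and NK cells, were among the genes that rose. Cxcl9 was at 52.02 and 68.1 CPM with free CDN2 and 302 and 229.5 CPM with exoCDN2 (2.15 ± 0.37, adjusted p = 0.00395), and Cxcl10 at 80.8 and 85.5 against 351 and 263 CPM (1.89 ± 0.36, adjusted p = 0.00706). Cxcl11, annotated as a polymorphic pseudogene and so not shown to encode a working ligand here, was lower in level but moved further. It went from 1.01 and 1.76 to 20.9 and 11.4 CPM (3.56 ± 0.51, adjusted p = 0.00123). In each fit without 1 of the tumors that stood apart, 2 of these 3 were called. The receptor gene Cxcr3 was the one tested member of the 4 that was not called, at 6.36 and 6.37 CPM with free CDN2 and 2.94 and 5.31 CPM with exoCDN2. Of the CC chemokines and relatives, 5 of 15 were higher, among them Ccl5, a chemokine that attracts T cells and monocytes, at 8.48 and 12.8 CPM with free CDN2 and 217 and 203 CPM with exoCDN2 (4.31 ± 0.38, adjusted p = 7.95e-05). The monocyte attractants Ccl2 and Ccl7 had log2 fold changes of 2.33 ± 0.44 and 2.21 ± 0.36 (SE). With 1 tumor left out, the CC list had 2 calls (no exoCDN2 tumor 1) or 4 (no free CDN2 tumor 2).

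Antigen presentation on MHC class I, through which tumor cells become visible to CD8+ T cells, was raised at 13 of 17 genes, with a median of 1.77. H2-K1, a classical class I heavy chain, was at 404 and 555 CPM with free CDN2 and 2816 and 1712 CPM with exoCDN2 (2.24 ± 0.38, adjusted p = 0.00346). Tapbp, which encodes the peptide-loading factor tapasin, was at 138 and 157 against 577 and 401 CPM (1.73 ± 0.24, adjusted p = 0.00105). H2 genes are close paralogs, and reads shared between them could have been assigned to the wrong member, so single members such as H2-T22 and H2-Q4 (2.68 and 1.83 on the log2 scale) are uncertain. The class I list had 4 calls without tumor 1 given exoCDN2 and 7 without tumor 2 given free CDN2.

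MHC class II, which presents to CD4+ T cells, was less even. Of 11 genes 3 were called higher, namely H2-DMa and H2-DMb1, whose products edit the bound peptides, and Ctss, the protease cathepsin S. H2-Ab1, a class II chain, was at 36.5 and 54.4 CPM with free CDN2 and 182 and 47.8 CPM with exoCDN2, so the groups overlapped and it was not called (1.34 ± 0.67, adjusted p = 0.234). The summed level of the list was 1905 and 664 CPM with exoCDN2 and 331 and 479 CPM with free CDN2. Tumor 1 given exoCDN2, which also carried the keratinocyte genes, held the high value. Without it 0 class II genes were called, as was the case without either free CDN2 tumor, and the median fell from 1.71 to 0.49.

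Complement genes were called higher at 11 of 13 members. C4b, a component of the classical and lectin pathways, was at 72.99 and 66.7 CPM with free CDN2 and 549.9 and 271 CPM with exoCDN2 (2.55 ± 0.36, adjusted p = 0.00105). C1ra, a protease of the first component, was at 25.6 and 22.5 against 146 and 92.1 CPM (2.31 ± 0.27, adjusted p = 0.000405). Both were called in all 12 alternative fits, but the list as a whole had 2 calls without tumor 1 given exoCDN2 and 2 without tumor 2 given free CDN2.

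Genes of cytotoxic lymphocytes were the next group. Of 13 cytotoxic granule genes 7 were higher with exoCDN2, with a median of 2.43. Gzmb, the granule protease granzyme B, was at 6.87 and 9.002 CPM with free CDN2 and 123 and 59.4 CPM with exoCDN2 (3.52 ± 0.48, adjusted p = 0.000947). Prf1, which encodes the pore-forming perforin, was at 4.07 and 3.54 against 41.2 and 19.6 CPM (2.99 ± 0.46, adjusted p = 0.00172), and Gzma at 2.81 and 4.95 against 75.1 and 37.7 CPM (3.87 ± 0.60, adjusted p = 0.00208). These 3 genes were called in all 12 alternative fits. Without tumor 1 given exoCDN2 or without tumor 2 given free CDN2, the list had 3 and 3 calls.

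The genes that define T cells were low in every tumor. Of 22 tested T cell markers 6 were higher, with a median of 1.71, and 0 were called without tumor 1 given exoCDN2 or without tumor 2 given free CDN2. Cd8a, the co-receptor of cytotoxic T cells, was at 3.02 and 2.74 CPM with free CDN2 and 11.96 and 9.61 CPM with exoCDN2, and the groups did not overlap, but its adjusted p of 0.0954 missed the threshold (log2 fold change 1.90 ± 0.67, SE). Cd3e, a subunit of the T cell receptor complex, was at 0.857 and 1.23 against 3.8 and 2.49 CPM and was not called either (1.60 ± 0.54, adjusted p = 0.0823). Those called with the smallest p were Lck, a kinase of receptor signaling, the co-stimulatory receptor Cd28, and the transcription factor Bcl11b, with log2 fold changes of 1.20, 3.00 and 2.69. Cd4 and Foxp3, the factor of regulatory T cells, were near or below 1 CPM in these 4 tumors and were not called.

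Tbx21, which encodes the Th1 transcription factor T-bet (ENSMUSG00000001444, chr11:97098071-97115331), was at 0.45 and 0.506 CPM with free CDN2 and 2.51 and 1.75 CPM with exoCDN2 (2.15 ± 0.42, adjusted p = 0.00814). The groups did not overlap, and the PBS tumors stood at 0.0816 and 0.0876 CPM and the 20 µg CDN2 tumors at 0.449 and 0.557 CPM. It remained called in 9 of the 12 alternative fits. On the list of Th1 and effector T cell genes, 8 of 13 were called higher, and 1 in either fit without a tumor that stood apart. Tcf7, which encodes the factor TCF1 of naive and stem-like T cells (ENSMUSG00000000782, chr11:52252371-52283014), was at 15.1 and 11.9 CPM with free CDN2 and 11.8 and 12.4 CPM with exoCDN2. Cd3e was at no more than 3.8 CPM in these 4 tumors, and which cells carried the Tcf7 RNA was not tested. For Tcf7 the groups overlapped, and the 95% interval of its log2 fold change ran from -0.63 to 0.30 around -0.16. Both groups were above the 5.999 and 5.997 CPM of the 20 µg CDN2 tumors, and each of these differences was called, in comparisons that called 8.76% and 7.35% of all genes higher (1.17 ± 0.22 for free CDN2 and 1.01 ± 0.22, SE, for exoCDN2 on the log2 scale).

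NK cell receptors were also among the genes that rose. Of 11 tested NK markers 8 were called higher, with a median of 2.63, but this rested on individual tumors, with 0 calls without tumor 1 given exoCDN2, 0 without tumor 1 given free CDN2 and 1 without tumor 2. Klrk1, the activating receptor NKG2D, was at 2.1 and 3.28 CPM with free CDN2 and 13.7 and 10.5 CPM with exoCDN2 (2.17 ± 0.49, adjusted p = 0.0166). Ncr1, the receptor NKp46 that defines the lineage, was at 0.193 and 0.453 against 2.04 and 1.99 CPM and was not called (2.65 ± 0.98, adjusted p = 0.109). Among checkpoint genes 5 of 14 were higher, and 1 in either fit without a tumor that stood apart. Cd274, the ligand PD-L1, was at 27.8 and 18.3 CPM with free CDN2 and 197 and 86.0 CPM with exoCDN2 (2.61 ± 0.44, adjusted p = 0.00377), and Lgals9, which encodes galectin-9, was at 103 and 144 against 375 and 319.6 CPM (1.49 ± 0.19, adjusted p = 0.000589).

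**Figure D4:**
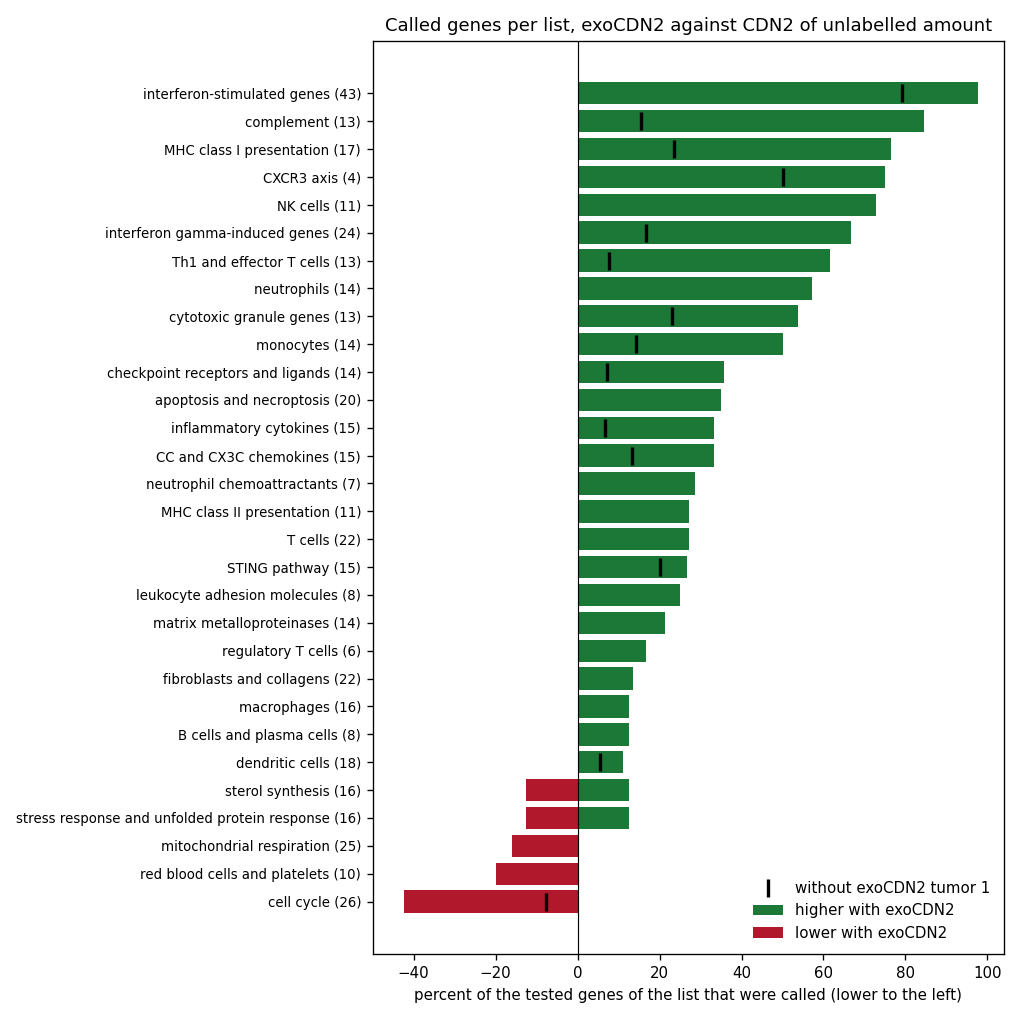
Percent of the tested genes of each list (number in brackets) that were called higher (right) or lower (left) with exoCDN2, for the lists with a call. Black ticks mark the percent without tumor 1 given exoCDN2, and a list without a tick had no call in that fit. The interferon-stimulated genes had 34 calls there against 42 in the full fit, and the neutrophil list 0 against 8.

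Myeloid genes were mixed. Without tumor 1 given exoCDN2 or without tumor 2 given free CDN2, 2 and 3 monocyte markers, 0 and 0 macrophage markers and 1 and 1 dendritic cell markers were called. Of 14 monocyte markers 7 were higher, with Ly6c2, which marks inflammatory monocytes, at 9.79 and 27.5 CPM with free CDN2 and 271 and 161 CPM with exoCDN2 (3.54 ± 0.69, adjusted p = 0.00761). Of 16 macrophage markers 2 were higher, Msr1 and Arg1, while Adgre1, the macrophage protein F4/80, was at 23.3 and 27.7 against 46.3 and 32.7 CPM and was not called (0.63 ± 0.44, adjusted p = 0.407). Nos2, the inducible nitric oxide synthase, was at 3.96 and 3.52 CPM with free CDN2, 89.8 and 24.2 CPM with exoCDN2 and 540.3 and 94.8 CPM with 20 µg CDN2 (3.93 ± 0.78, adjusted p = 0.00865 for exoCDN2 against free CDN2). Dendritic cell markers had a median of 0.00, and 2 of 18 were called, Bst2, which is also an interferon-stimulated gene, and the co-stimulatory ligand Cd80. Xcr1, a marker of cross-presenting dendritic cells, was at 0.471 and 0.373 CPM with free CDN2 and 0.565 and 0.381 CPM with exoCDN2, and Itgax, the integrin CD11c, at 7.69 and 6.26 CPM with free CDN2 and 7.93 and 6.09 CPM with exoCDN2, with overlapping groups in both cases.

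Neutrophil genes were close to absent from the free CDN2 tumors. The 14 tested markers summed to 6.6 and 10.8 CPM there, to 103 and 36.4 CPM with exoCDN2, and to 1349.5 and 304 CPM with 20 µg CDN2, against 4.98 and 3.85 CPM with PBS. Of these genes 8 were called higher with exoCDN2 than with free CDN2, but 1 without tumor 1 given free CDN2 and 0 without tumor 2 of that group or without tumor 1 given exoCDN2. S100a8, a calcium-binding protein abundant in neutrophils, was at 0.193 and 1.25 CPM with free CDN2 and 11.7 and 3.28 CPM with exoCDN2 (3.42 ± 0.99, adjusted p = 0.0464), and was called in 6 of the 12 alternative fits. Ly6g, which defines the lineage, had 0 and 0 CPM with free CDN2 and 0.0584 and 0.0141 CPM with exoCDN2, which is at or near the limit of detection. Among 7 neutrophil chemoattractants Cxcl2 and Cxcl5, ligands of CXCR2, were called higher, and 0 were called in either fit without a tumor that stood apart. Cxcl2 was at 0.493 and 0.719 CPM with free CDN2 and 24.3 and 6.12 CPM with exoCDN2 (4.66 ± 1.00, adjusted p = 0.013). The inflammatory cytokines Tnf and Il6 were not called, Tnf at 1.39 and 0.985 against 4.5 and 2.71 CPM and Il6 at 0.257 and 0.559 against 2.2 and 0.55 CPM.

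Genes of cell death included executioners of pyroptosis and necroptosis. Of 20 tested genes 7 were higher, with 0 without tumor 1 given exoCDN2 and 4 without tumor 2 given free CDN2. Mlkl, the pore-forming effector of necroptosis, was at 64.4 and 76.6 CPM with free CDN2 and 208 and 147 CPM with exoCDN2 (1.33 ± 0.22, adjusted p = 0.00264). Gsdmd, the pore-forming gasdermin D of pyroptosis, was at 6.85 and 10.5 against 45.5 and 25.3 CPM (2.03 ± 0.35, adjusted p = 0.00412).

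Among the lists, that of cell division genes held the most members called lower. Only 21 of the 242 genes called lower with exoCDN2 were on any list, and the rest were not grouped. Of 26 tested cell cycle genes 11 were called lower with exoCDN2 and 0 higher, and all 26 log2 fold changes were negative, with a median of -0.95. Their summed level was 4613 and 5352 CPM with free CDN2 and 1965 and 2969 CPM with exoCDN2, while with PBS it was 4582 and 4973 CPM and no member was called between free CDN2 and PBS. The size of the fall was similar in all fits, with medians between -1.30 and -0.74, but the count was 2 without tumor 1 given exoCDN2, 4 without tumor 2 given free CDN2, 19 without tumor 2 given exoCDN2, and 4 with scaling by total counts.

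Ccnb1, cyclin B1, which drives entry into mitosis (ENSMUSG00000041431, chr13:100778650-100786570), had the smallest p-value among the named genes that fell. It was at 185 and 255 CPM with free CDN2 and 59.6 and 87.5 CPM with exoCDN2 (-1.58 ± 0.21, adjusted p = 0.000796), and the free CDN2 tumors lay on both sides of the 206 and 207 CPM seen with PBS. Mad2l1, a component of the spindle checkpoint, was at 130.0 and 225 against 49.97 and 71.8 CPM (-1.55 ± 0.23, adjusted p = 0.00144), and Cdc20, the activator of the anaphase-promoting complex that this checkpoint holds back, at 79.5 and 88.7 against 33.4 and 37.5 CPM (-1.25 ± 0.17, adjusted p = 0.00104). Hmgb2, a chromatin protein abundant in dividing cells, fell from 252 and 327 to 86.9 and 135 CPM (-1.38 ± 0.20, adjusted p = 0.00119). These 4 genes were called in all 12 alternative fits. Mki67, the usual marker of proliferation, was at 103 and 196 against 51.98 and 109 CPM and was not called (-0.89 ± 0.58, adjusted p = 0.372), and its 2 PBS tumors alone differed from 189.5 to 33.1 CPM.

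Of the other genes among the 15 lower ones with the smallest p, Pbk, Sapcd2, Cdc25c, Spc25 and Pimreg also have roles in cell division, Kpna2 is an importin and Nrm a protein of the nuclear envelope. The 4 that remain act elsewhere. Fcrls, an Fc receptor-like gene expressed by macrophages and microglia, had the largest change of the 15, from 1.93 and 3.3 to 0.156 and 0.268 CPM (-3.58 ± 0.53, adjusted p = 0.00144), and was called in all 12 alternative fits. With PBS it was at 6.06 and 4.01 CPM. Herpud1, a protein of endoplasmic reticulum-associated degradation, was at 75.3 and 80.6 against 34.5 and 40.1 CPM (-1.06 ± 0.15, adjusted p = 0.00106), Adk, adenosine kinase, at 40.7 and 72.01 against 16.1 and 19.5 CPM (-1.66 ± 0.25, adjusted p = 0.00155), and Kcne3, a potassium channel subunit, at 4.63 and 7.24 against 0.682 and 1.04 CPM (-2.77 ± 0.43, adjusted p = 0.00212).

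Mitochondrially encoded genes of the respiratory chain were also called lower, and tumor 2 given free CDN2 held the high values. mt-Nd1, a subunit of complex I, was at 4107 and 12669 CPM with free CDN2 and 2710.5 and 2871 CPM with exoCDN2 (-1.59 ± 0.37, adjusted p = 0.0183), and PBS tumors were at 4249.6 and 5209 CPM. Of 25 respiration genes 4 were called lower, with 0 without that tumor, 0 without either exoCDN2 tumor and 12 without tumor 1 given free CDN2. Leaving all mitochondrially encoded genes and 4 nuclear genes with a like pattern out of the table changed the number of genes called from 1092 to 1089.

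Melanocyte, endothelial and glycolysis genes did not pass the test. None of the 16 melanocyte lineage genes was called, with a median of -0.23, and Pmel, the melanosome matrix protein, was at 4681 and 6363 CPM with free CDN2 and 3675 and 3647 CPM with exoCDN2 (-0.59 ± 0.28, adjusted p = 0.207). Mlana was at 477 and 773 against 476 and 436 CPM, so the melanoma identity given in the labels was visible in all 4 tumors. None of 17 endothelial and none of 20 glycolysis and hypoxia genes was called, and Pecam1, the endothelial protein CD31, was at 33.0 and 37.2 against 37.1 and 37.2 CPM. Of 22 fibroblast genes 3 were higher (Col1a2, Pdgfra and Thy1), and 0 in either fit without a tumor that stood apart. Thy1 is also on the list of T cell markers, so its call counts in both lists. Skeletal muscle genes, which summed to 139 and 188 CPM with free CDN2 and 300.0 and 311 CPM with exoCDN2, reached 6384 and 3406 CPM with 20 µg CDN2.

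The remaining lists were small or split in their calls. Of 15 inflammatory cytokine genes 5 were higher (1 without tumor 1 given exoCDN2 and 2 without tumor 2 given free CDN2), led by Tnfsf10, the death ligand TRAIL, at 3.88 and 4.05 CPM with free CDN2 and 19.3 and 13.2 CPM with exoCDN2 (2.04 ± 0.30, adjusted p = 0.00148). The sterol synthesis and stress response lists each had 2 genes called higher and 2 lower of 16. On the sterol list these were Abcg1 and Ch25h, an interferon-inducible cholesterol hydroxylase (1.40 and 1.69 on the log2 scale), against Fdps and Insig1 (-1.02 and -1.09). The sterol list as a whole leaned lower, with 13 of 16 log2 fold changes negative and a median of -0.69, against 0.04 over all genes. Called genes were 3 of 14 matrix metalloproteinases, 2 of 8 leukocyte adhesion molecules, 1 of 6 regulatory T cell genes (Il2ra) and 1 of 8 B cell genes (Pax5), all higher. Of 10 red blood cell and platelet genes 2 hemoglobin genes were lower, and 0 of 12 adipocyte, 18 muscle and 8 mast cell and eosinophil genes were called. Without tumor 1 given exoCDN2, the sterol, stress, metalloproteinase, adhesion, regulatory T cell, B cell and red blood cell lists had 0 calls. Without tumor 2 given free CDN2 the same lists had 0 calls higher or lower, except for 1 stress response gene called lower. Ms4a1, the B cell protein CD20, had too few counts to be tested.

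To place the free CDN2 tumors of unlabelled amount, they were compared with the 2 tumors given 2 doses of CDN2 labelled 20 µg. Of the 17110 genes 4305 (25.2%) were called, 1499 (8.76%) higher and 2806 (16.4%) lower in the tumors of unlabelled amount, and this is also the test of whether exoCDN2 differed from the 2 free groups to a different extent, since the exoCDN2 tumors cancel. Interferon-stimulated genes were lower at 38 of 43, neutrophil markers at 14 of 14, and skeletal muscle markers at 18 of 18. Isg15, at 22.7 and 32.4 against 1056 and 663 CPM, had a log2 fold change of -4.96 ± 0.29, adjusted p = 1.75e-06 by the same test. Higher than with 20 µg were 14 of 26 cell cycle genes and 6 of 16 melanocyte genes, and Tfrc, the transferrin receptor, was at 547 and 798 against 70.1 and 99.6 CPM (unlabelled amount over 20 µg, 2.98 ± 0.25, adjusted p = 1.75e-05). The 2 tumors labelled 20 µg differed from each other more than those of the other groups, with 28.2% of genes more than 2-fold apart, and the count of called genes was 2638 without tumor 1 and 6571 without tumor 2 of that group.

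Against PBS after 2 doses, the free CDN2 tumors had 164 called genes (0.959%), 157 (0.918%) higher and 7 (0.0409%) lower, and the exoCDN2 tumors 1912 (11.2%), 1511 (8.83%) higher and 401 (2.34%) lower. The first count rested on single tumors too, with 619 without tumor 1 and 76 without tumor 2 given free CDN2, and 324 without tumor 1 and 62 without tumor 2 given PBS. The second was 942 without tumor 1 given exoCDN2 and 1066 without tumor 2 given PBS. These comparisons share the PBS tumors with each other and the treated tumors with the main comparison. In the free CDN2 tumors 32 of 43 interferon-stimulated genes, 19 of 24 interferon gamma-induced genes and 15 of 17 MHC class I genes were above PBS, and 0 of the 14 neutrophil and 26 cell cycle genes were called. In the exoCDN2 tumors all 43, 24 and 17 genes of the first 3 lists were above PBS, as were 19 of 22 T cell markers, and 13 of 26 cell cycle genes were below. For 1 gene alone, exact permutation of 4 tumors allows no two-sided p under 0.333. Each call therefore rests on the spread of the gene over 18 tumors, drawn toward that of all genes. The biological coefficient of variation common to all genes was 0.228, and the fit had 9 residual degrees of freedom before the genes were combined.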

How the data were processed

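RNA from 18 whole B16F10 tumors in 9 groups of 2 was sequenced by the authors (2 × 150 bp). Per the study's methods, reads were aligned to GRCm38 with OSA in OmicSoft ArraySuite 10.1 and counted with RSEM on Ensembl R88 gene models, and the authors deposited expected counts (estimated counts) without normalization. Between 8.75% and 12.7% of the values per tumor were not whole, and all were rounded here. The labels do not say whether the tumors of a group came from separate experiments. Symbols and positions came from GENCODE M21 (GRCm38), which matched 50376 of 50600 gene identifiers.

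Genes were kept by filterByExpr (minimum count 10, minimum total 15), scaled by TMM and fitted in 1 quasi-likelihood model with edgeR 4.0.16 in R 4.3.3, with 1 mean per group. Benjamini-Hochberg adjustment covered all 17110 genes tested, and calls needed an adjusted p below 0.05 and a ratio above 2, the study's limits. The study's tool was DESeq2, tried here as DESeq2 1.42.0 among the alternatives. Genes named were the 15 with the smallest p each way (predicted genes left out), at most 3 called genes per list and direction, fixed lineage and interferon genes, and the 5 with the smallest p each way between the 2 free groups. Lists were written from general knowledge, and the members and lists were chosen with earlier results of these data known. Some genes outside these rules are named only as list members, such as Cxcr3, chosen after its value was seen. Without strand information in the sources used here, overlapping genes cannot be told apart. The procedure was tested on simulated data.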

Additional observations from a re-analysis of the deposited data

Results flagged for a closer look

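In 20 of 137 named genes, exoCDN2 lay above free CDN2 of unlabelled amount and below CDN2 labelled 20 µg. In Tfrc it lay below the first and above the second, all these differences being called in the full fit. Many of the 137 were named for small p-values in these data, so the count is no share of all tested genes. Among only the 8 tumors given 2 doses, exoCDN2 against free CDN2 was not called for Tfrc, Arg1, Osm, Cd80, Il1b and S100a8. Nor was it for Pdgfra, Cxcl2, Hmox1, Mmp3 and Mmp8, while the others stayed called in that fit. Of these others, Cxcr2, Nos2, Ccl2, Lcn2 and Cxcl10 were not called without tumor 1 given exoCDN2. Their log2 fold changes, exoCDN2 over free CDN2, went from 5.11, 3.93, 2.33, 3.42 and 1.89 to 3.81, 2.69, 1.70, 2.55 and 1.66. All genes of this section are listed because the contrast of exoCDN2 with free agonist pointed in opposite directions for the 2 free groups in the full fit. The tested difference between the free groups is the log2 fold change of unlabelled amount over 20 µg by edgeR's quasi-likelihood test. It was -4.96 ± 0.29 (SE) for Isg15, -3.23 for Rtp4 and 2.98 ± 0.25 for Tfrc. Among chemokine genes it was -3.49 ± 0.39 for Cxcl10, -5.60 for Cxcl11 (annotated as a polymorphic pseudogene), -5.62 ± 0.40 for Ccl5, -3.93 for Ccl2 and -10.49 for Cxcl2. For markers of myeloid cells it was -6.40 ± 0.87 (Nos2), -7.74 ± 1.12 (S100a8), -4.36 ± 0.68 (Arg1), -8.82 ± 1.14 (Cxcr2), -7.12 (Lcn2) and -3.42 (Cd80). Cxcr2 had 2 and 4 counts in the tumors of unlabelled amount, near the limit of 3 counts, so the size of its change is uncertain. The cytokines Il1b and Osm had -5.55 and -7.50, and the metalloproteinases Mmp3 and Mmp8 -6.03 and -5.01. The values for Hopx, Hmox1 and Pdgfra were -4.21, -2.80 and -3.37. Cxcl10, for example, was at 80.8 and 85.5 CPM with unlabelled CDN2, 351 and 263 CPM with exoCDN2 and 1095 and 770.5 CPM with 20 µg. Groups of 2 tumors are too small for a test of outlying tumors.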

How the results depend on the processing

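Leaving out each tumor in turn, the lone tumor of a group assumed to vary like the others, gave 170 to 1415 called genes (159 to 995 higher, 11 to 757 lower) for exoCDN2 against free CDN2 of unlabelled amount, 2638 to 6571 (791 to 3098, 1847 to 3473) for unlabelled amount against 20 µg, 62 to 619 (59 to 509, 0 to 110) for unlabelled amount against PBS, and 942 to 2066 (832 to 1604, 110 to 462) for exoCDN2 against PBS. Without the filter on low counts the main comparison had 1846 (1483 higher, 363 lower), and unlabelled amount against PBS had 713 (586 and 127). Among only the 8 tumors given 2 doses these were 322 (309 and 13) and 102 (100 and 2), and exoCDN2 against PBS had 1243 (180 lower). With only the 2 groups compared they were 866 (756 and 110) and 276 (240 and 36), and unlabelled amount against 20 µg had 2350 (512 and 1838). DESeq2 called 1403 genes in the main comparison and 357 (331 and 26) for unlabelled amount against PBS. Without the ratio limit, lower calls came to 550 in the main comparison and 895 for exoCDN2 against PBS, and unlabelled amount against 20 µg had 6817 (3209 higher). Scaling by total counts alone gave 1204, with 105 lower. Beyond fewer tumors or genes in a fit, the causes were not tested.

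The log2 fold change of Itgax, 0.0052 in the main comparison, turned to -0.0255 with RLE factors, -0.0254 with DESeq2, -0.0205 with only the 2 groups, -0.0036 with the 8 tumors, -0.0049 without mitochondrial genes (an alternative chosen after seeing the data), and lay between -0.20 and 0.18 when a tumor was left out. That of Tcf7 turned to 0.0117 with total counts and ranged from -0.33 to 0.0236 when a tumor was left out. The same ranges were -0.0035 to 0.17 for Pecam1, -0.15 to 0.41 for Xcr1 and -5.73 to 11.66 for Krt5. The labels number the tumors 1 and 2 in each group. Same-numbered tumors deviated with correlations of -0.0144 for the main comparison and -0.143 for unlabelled amount against 20 µg. The correlations were 0.217 for unlabelled amount against PBS and -0.0015 for exoCDN2 against PBS. With 2 tumors per group, these values cannot tell whether same-numbered tumors shared a day or cage, and the labels do not say. With the number as a block the counts of called genes were, in the same order, 1026, 4239, 157 and 1859. RLE factors moved no count by over 1.5 times. Depth limited genes under about 0.1 CPM, such as Ifnb1 and Ly6g.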
